A study of Mus musculus with 8 samples.

Results

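The p62-KEAP1-NRF2 axis was read from epididymal white fat, the visceral fat pad beside the epididymis, as the transcripts of 9 genes. They are the receptor p62 (Sqstm1), the ubiquitin ligase parts KEAP1 (Keap1) and CUL3 (Cul3), the transcription factors NRF2 (Nfe2l2), NRF1 (Nfe2l1) and BACH1 (Bach1), and the small MAF partners (Maff, Mafg, Mafk). The genes were chosen by name, with earlier results of these data known, and every row with a listed name was taken. The names matched 10 of 37417 rows of the deposited table, because Mafg names both a protein-coding gene and a processed pseudogene lying inside it. All 10 rows passed the filter on low counts. The knockout (KO) group was 4 male C57Bl/6 mice with floxed Atg3 alleles and Adiponectin-Cre ERT2, a tamoxifen-activated recombinase under a promoter active in adipocytes, so other cells of the fat pad keep Atg3. The wild-type (WT) group was 4 male C57Bl/6 mice; the labels do not say whether they carried the recombinase or floxed alleles. Both groups received tamoxifen and ate chow, and the labels used here give no age. Each library is polyadenylated RNA of a fat pad, in which fewer cells of a type and less RNA per cell cannot be told apart.

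In mice and other mammals KEAP1 holds NRF2 in the cytosol and, with CUL3, marks it for destruction by the proteasome. Oxidants and electrophiles modify KEAP1 and let NRF2 escape to the nucleus, where it pairs with a small MAF protein at antioxidant response elements and turns on detoxification, glutathione and iron storage genes. BACH1 occupies many of the same elements as a repressor, also with a small MAF, until heme displaces it. p62 is a cargo receptor that is itself consumed by autophagy; where autophagy stops, p62 protein accumulates and can bind KEAP1. Much of this control acts on proteins, which RNA sequencing does not measure.

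The promoter of Sqstm1 is shown because Sqstm1 was the member whose genotypes did not overlap in level. The sequence is the 250 bases before the RefSeq start site in build GRCm38.p6, chr11:50210821-50211070 on the minus strand, with the 3 matches to the GC box GGGCGG (either strand) in capitals. The motif was searched after this sequence had been seen.
Sqstm1 promoter: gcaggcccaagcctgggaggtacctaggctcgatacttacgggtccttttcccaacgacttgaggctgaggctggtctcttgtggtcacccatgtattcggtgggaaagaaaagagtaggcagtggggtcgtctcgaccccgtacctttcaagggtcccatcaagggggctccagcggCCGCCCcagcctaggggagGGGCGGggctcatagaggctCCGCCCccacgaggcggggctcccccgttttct
Read along the gene, the first bases of the GC boxes lie between 72 and 33 bases before the start, and 63.2% of the 250 bases are G or C. A GC box was found in 35.7% of the 32851 RefSeq promoter windows of mouse genes, each of which runs from 250 bases before to 50 after a start site. Among the 9 genes it was found in 10 of 15 windows and in 8 genes, so it was not particular to Sqstm1.

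The core of the antioxidant response element, TGACNNNGC on either strand, was found in 4 of the 15 promoter windows of the 9 genes. These belong to Nfe2l2 and to each of the small MAF genes, with 1 of the 3 windows of Maff. Over all promoter windows 12.4% held the core. The windows of Sqstm1, Keap1, Cul3, Bach1 and Nfe2l1 did not hold these letters, and sequence outside the windows was not searched. The matches are shown with 10 bases on each side, written on the strand that reads TGACNNNGC, with the core in capitals. The promoter windows of the 6 genes on the NRF2 target list called higher in KO fat were searched too. Only that of Gsta3, a glutathione S-transferase, held the core, and its match is set beside them.
Nfe2l2, chr2:75704885-75704913, minus strand: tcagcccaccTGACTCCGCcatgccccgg
Mafg, chr11:120633751-120633779, plus strand: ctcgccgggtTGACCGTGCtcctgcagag
Mafk, chr5:139791513-139791541, minus strand: tccccagtacTGACACCGCttccgggatc
Maff, chr15:79346499-79346527, plus strand: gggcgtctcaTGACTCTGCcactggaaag
Gsta3, chr1:21240454-21240482, plus strand: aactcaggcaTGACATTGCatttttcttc
Read along each gene, the first base of the match lies 240 bases before the start site in Nfe2l2 and 121 in Gsta3. It lies 222 bases before the start site in Mafg, 112 in Maff and 13 in Mafk. In Mafg and Mafk the core reads on the strand opposite to the gene, so this base is at the GC end of the core. The CLEAR element core TCACGTGA, a palindrome read by the lysosome regulators TFEB and TFE3, was found in 1 of the 15 windows, in Maff, and in 0.974% of all windows. A match is a description of the letters and was not tested for binding.

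Levels of different genes are compared as the deposited FPKM, which divides reads by exonic length and library total. Sqstm1 and Nfe2l1 were the most abundant of the 9 transcripts, above 98.2% and 97.5% of the 14800 genes tested. Sqstm1 averaged 153 ± 2.78 FPKM in KO fat and 119.6 ± 8.59 FPKM in WT fat, and Nfe2l1 averaged 104 ± 7.22 and 114 ± 10.8 FPKM in KO and WT fat (SD, n = 4 each). Sqstm1 was above Nfe2l1 in 4 of 4 KO libraries and in 3 of 4 WT libraries, where the 2 genes overlapped. Below them came Nfe2l2 at 32.6 ± 3.28 FPKM in KO and 35.8 ± 2.72 FPKM in WT fat, Cul3 at 25.5 ± 1.42 and 25.9 ± 0.667 FPKM, Mafg at 18.9 ± 2.02 and 18.7 ± 2.04 FPKM, and Keap1 at 14.7 ± 0.600 and 14.6 ± 0.826 FPKM, KO before WT for each. Mafk (10.3 ± 1.08 in KO, 10.5 ± 1.16 in WT), Bach1 (7.60 ± 1.12 in KO, 7.75 ± 1.86 in WT) and Maff (6.50 ± 1.74 in KO, 5.61 ± 1.07 in WT) were the lowest in FPKM. Each of the neighbours from Nfe2l1 to Bach1 in this order of genes stood above the next in 8 of 8 libraries, and Bach1 stood above Maff in 7 of 8.

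**Figure D1:**
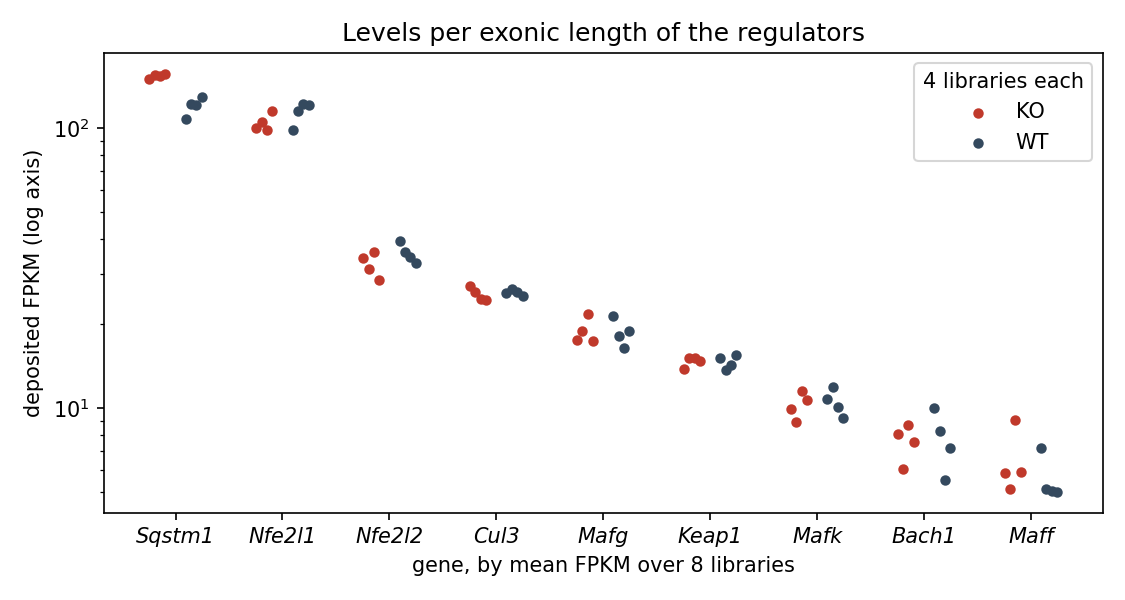
Deposited FPKM of the 9 genes on a log axis, ordered by their mean, with 4 KO libraries (left of each pair) and 4 WT libraries (right). Sqstm1 is the gene whose KO points, 149.7 to 156 FPKM, all lie above its WT points, 108 to 129 FPKM.

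The design compares the genotypes, and the values below are CPM, read counts set relative to library size with TMM factors. Of the 10 rows, 0 passed an adjusted p of 0.05 in edgeR's quasi-likelihood test, which called 0.405% of the 14800 genes tested. At an unadjusted p under 0.05, 1 row passed (16.2% of all genes), and 1 was called by DESeq2 (5.48% of all genes) and 0 by limma-voom. That row was Sqstm1 each time. The median log2 fold change (log2FC, KO over WT) of the 10 rows was -0.03, against -0.01 over all genes tested, with 3 positive and 7 negative. The number of reads behind each member ran from 140 (Maff) to 13520 (Nfe2l1) per library, the pseudogene row having 73 to 193.

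Sqstm1 encodes p62, which carries ubiquitinated cargo to the autophagosome membrane. It had 501, 518, 491 and 546 CPM in KO libraries 1 to 4, against 342, 410.0, 433 and 437 CPM in WT libraries 1 to 4. Every KO library stood above every WT library, and the gap between the highest WT and the lowest KO library was smaller than the range within WT. Its mean was 514 ± 24.0 CPM in KO and 405 ± 43.9 CPM in WT fat (SD, n = 4 each), 1.27-fold higher. The log2FC was 0.34 (SE 0.10, 95% interval 0.12 to 0.57), with an adjusted p of 0.159 by edgeR, so the difference did not pass. DESeq2 gave an adjusted p of 0.0120 and limma-voom 0.210. KO libraries that do not overlap WT libraries from above were found for 4.32% of all genes tested. WT library 1 stood lowest, and without it the log2FC was 0.27 (edgeR adjusted p = 0.200).

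Other library measures also differed between the genotypes without overlap, and their part in the Sqstm1 difference was not tested. The 14 duct epithelium markers summed to 45.0, 567, 572 and 51.9 CPM in KO libraries 1 to 4 and to 14.2 to 31.1 CPM in WT libraries, with 11 of 14 detected in every library and Cldn7, Pax8 and Elf3 at 0 in at least 1. The 6 endothelial markers, all detected throughout, summed to 1205 to 1373 CPM in KO and 1423 to 1680 CPM in WT libraries. The mitochondrial share of counts was 5.03 to 6.08% in KO and 3.05 to 4.93% in WT libraries. Without both KO libraries 2 and 3, where duct markers were highest, Sqstm1 had a log2FC of 0.38 (edgeR adjusted p = 0.537). The 8 adipocyte markers were present in every library and overlapped, at 20411 to 26548 CPM in KO and 21173 to 30740 CPM in WT libraries.

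A gene on the opposite strand, 3010026O09Rik, shares 750 bases with the 3′ end of the Sqstm1 model (chr11:50199366-50210827, mm10). It held 57 to 174 reads per library, at most 1.78% of those of Sqstm1. The libraries were made strand-specific, but whether strand was used in counting is not stated. Among 10248 genes that averaged 10 CPM or more, those most like Sqstm1 across the 8 libraries in log2 CPM were Ttc39c (Pearson's r 0.98), Vps53 (0.97), a subunit of tethering complexes at the Golgi, and Gpx4 (0.97), which reduces lipid peroxides. Gpx4 had 111, 109.8, 105 and 129.7 CPM in KO libraries 1 to 4, against 65.2, 80.5, 94.5 and 82.9 CPM in WT libraries 1 to 4. The edgeR adjusted p of these genes was 0.153, 0.252 and 0.119, and they are given as a description with no test of likeness.

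**Figure D2:**
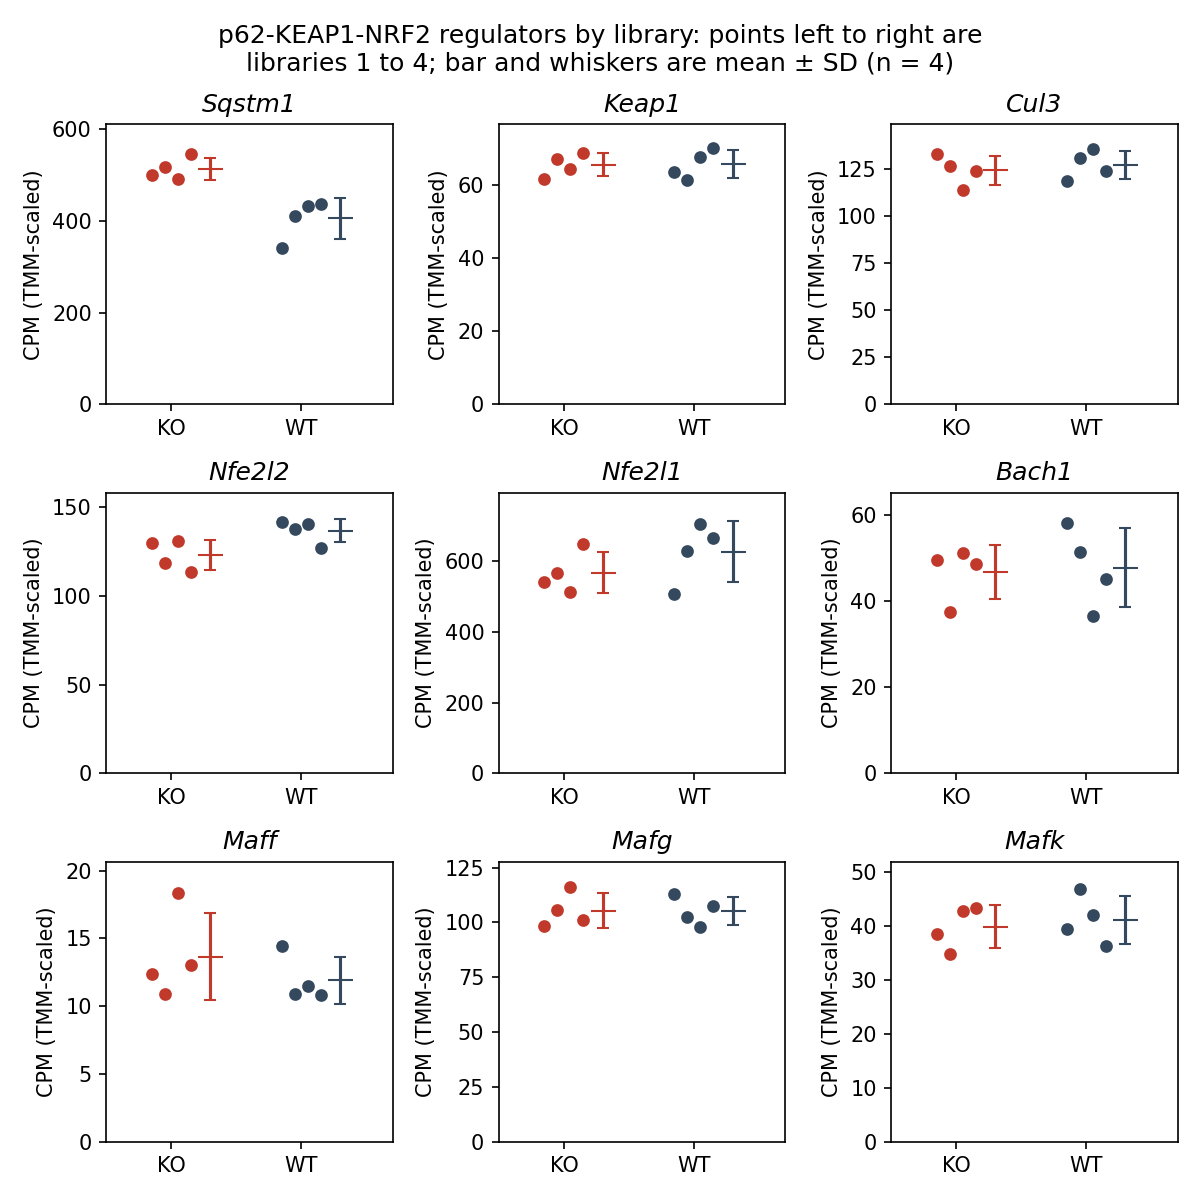
CPM of each of the 9 genes, with KO left and WT right, points for libraries 1 to 4 and mean ± SD beside them. The genotypes are apart for Sqstm1 (491 to 546 CPM in KO, 342 to 437 CPM in WT) and overlap in the other 8 panels.

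Keap1 and Cul3 encode the adaptor and the scaffold of the ligase that ubiquitinates NRF2. Keap1 had 61.6, 67.2, 64.6 and 68.8 CPM in KO libraries 1 to 4, against 63.7, 61.5, 67.8 and 70.2 CPM in WT libraries 1 to 4. The genotypes overlapped over almost the whole range, and the SD was 4.80% of the mean in KO and 5.94% in WT libraries. The log2FC of Keap1 was -0.01 (SE 0.070, 95% interval -0.16 to 0.15; edgeR adjusted p = 0.980), so a rise above 1.11-fold or a fall beyond 1.12-fold lay outside the interval; its sign turned with RLE, upper quartile and total count scaling and in DESeq2. Cul3 had 133, 127, 114 and 124 CPM in KO libraries 1 to 4, against 118, 131, 136 and 124 CPM in WT libraries 1 to 4. Its log2FC was -0.03 (95% interval -0.21 to 0.14; edgeR adjusted p = 0.861). The FPKM ratio of Cul3 to Keap1 was 1.62 to 1.98 in KO and 1.62 to 1.95 in WT libraries.

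Nfe2l2, the gene of NRF2 itself, averaged lower in KO fat by a margin that did not pass. It had 130.0, 119, 131 and 113 CPM in KO libraries 1 to 4, against 142, 138, 141 and 127 CPM in WT libraries 1 to 4. KO libraries lay lower on the whole, and WT library 4 fell among them. The mean was 123 ± 8.52 CPM in KO and 137 ± 6.57 CPM in WT fat (SD, n = 4 each). The log2FC was -0.15 (SE 0.076, 95% interval -0.32 to 0.02; edgeR adjusted p = 0.365). This interval runs from a 1.25-fold fall to a 1.01-fold rise.

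Nfe2l1 encodes NRF1, which sits in the endoplasmic reticulum membrane and drives proteasome genes when proteasome activity falls. It had 542, 568, 513 and 649.7 CPM in KO libraries 1 to 4, against 507, 629.7, 707 and 667 CPM in WT libraries 1 to 4. The lowest and the highest value were both WT, so the KO range lay inside the WT range. Its log2FC was -0.14 (95% interval -0.43 to 0.14; edgeR adjusted p = 0.620). Across the 8 libraries Nfe2l1 followed the summed adipocyte markers, which were 24064, 20592, 20411 and 26548 CPM in KO libraries 1 to 4 and 21173, 25046, 30740 and 24186 CPM in WT libraries 1 to 4. WT library 3 was the highest in both and KO library 3 and WT library 1 were among the lowest 3 in both. On the log2 scale Pearson's r was 0.85 over 8 libraries, the highest of 54 pairings of the 9 genes with 6 marker lists, and is given as a description, since both measures share library and depth.

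Bach1 encodes the heme-sensing repressor that competes with NRF2. It had 49.7, 37.4, 51.2 and 48.7 CPM in KO libraries 1 to 4, against 58.2, 51.4, 36.6 and 45.2 CPM in WT libraries 1 to 4. KO library 2 and WT library 3 stood low, and the SD was 13.5% of the mean in KO and 19.2% in WT libraries. The log2FC was -0.03 (95% interval -0.38 to 0.31; edgeR adjusted p = 0.939), which leaves room for a fall of up to 1.30-fold or a rise of up to 1.24-fold. The 8 macrophage markers summed to 1951, 1415, 1911 and 1749 CPM in KO libraries 1 to 4 and to 1733, 1852, 1440 and 1228 CPM in WT libraries 1 to 4. KO library 2 was the lowest KO library in both measures. WT library 3, the lowest WT library in Bach1, was the second lowest in macrophage markers, after WT library 4 (Bach1 at 45.2 CPM). On the log2 scale Pearson's r was 0.66 over 8 libraries, while Keap1 had -0.80 with the same markers. These are descriptions, and the part of macrophage markers in the Bach1 spread was not tested.

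**Figure D3:**
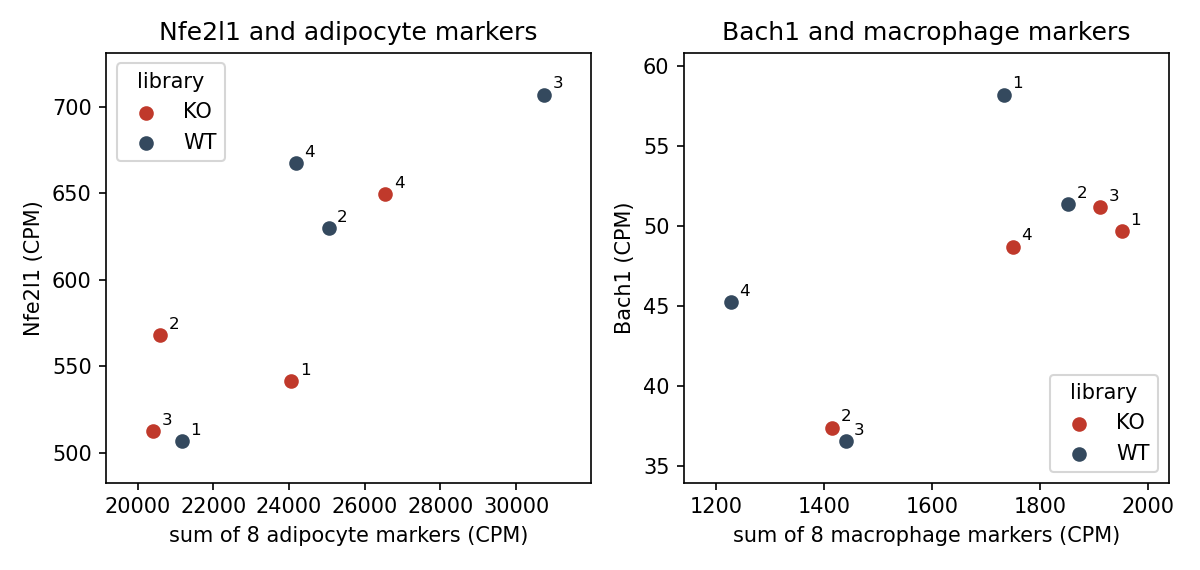
Left, CPM of Nfe2l1 against the sum of 8 adipocyte markers; right, CPM of Bach1 against the sum of 8 macrophage markers, with library numbers beside the points. Nfe2l1 is lowest in WT library 1 (507 CPM) and highest in WT library 3 (707 CPM), and Bach1 is below 40 CPM only in KO library 2 and WT library 3.

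The small MAF proteins lack an activation domain and serve NRF2, NRF1 and BACH1 alike as DNA-binding partners. Mafg was the main member, with 51.0 to 57.3% of the summed small MAF FPKM in KO and 51.5 to 57.1% in WT libraries. Mafk made up 27.1 to 31.5% in KO and 27.4 to 33.9% in WT libraries, and Maff 15.6 to 21.4% in KO and 14.6 to 18.4% in WT libraries. The sum of the 3 was 35.6 ± 4.44 FPKM in KO and 34.8 ± 3.33 FPKM in WT fat (SD, n = 4 each), and the genotypes overlapped in the sum and in each share.

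Mafg had 98.2, 106, 116 and 101 CPM in KO libraries 1 to 4, against 113, 103, 97.9 and 108 CPM in WT libraries 1 to 4. Its log2FC was 0.00 (95% interval -0.18 to 0.18; edgeR adjusted p = 0.991), and the sign turned with no filter on low counts. Mafk had 38.6, 34.8, 42.8 and 43.4 CPM in KO libraries 1 to 4, against 39.6, 46.9, 42.1 and 36.3 CPM in WT libraries 1 to 4. KO and WT libraries of both genes were interleaved. For Mafk the log2FC was -0.05 (95% interval -0.28 to 0.19; edgeR adjusted p = 0.864).

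Maff, which cells induce quickly under stress, varied most among the KO libraries of the protein-coding members. It had 12.4, 10.9, 18.3 and 13.1 CPM in KO libraries 1 to 4, against 14.4, 10.9, 11.5 and 10.8 CPM in WT libraries 1 to 4. KO library 3 was the highest of the 8 and WT library 1 the second highest. The log2FC was 0.20 (95% interval -0.21 to 0.61; edgeR adjusted p = 0.635), and it was 0.03 (edgeR adjusted p = 0.945) without KO library 3. Its interval reaches a 1.53-fold rise, the widest of the protein-coding members.

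Reads of the small MAF genes carry some uncertainty. The Mafg pseudogene row (chr11:120627681-120628181, mm10) lies on the same strand inside the Mafg model (chr11:120625117-120633600) and shares 501 bases with it. It held 5.93, 7.34, 6.81 and 9.27 CPM in KO libraries 1 to 4, against 8.51, 8.11, 5.99 and 8.90 CPM in WT libraries 1 to 4, so the genotypes overlapped here too. Its reads came to at most 9.16% of those of Mafg, and which row they belong to cannot be told from the counts. Sirt7 shares 124 bases with Mafg on the same strand and held 653, 697, 813 and 1116 reads in KO libraries 1 to 4, against 721, 824, 610 and 754 in WT libraries 1 to 4, up to 55.0% of those of Mafg, and strand cannot separate reads from the shared bases. Tmem184a shares 169 bases with Mafk on the opposite strand and held 10, 109, 142 and 18 reads in KO libraries 1 to 4, against 3 to 9 in WT libraries; Mafk itself was lowest in KO library 2.

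Ratios within a library do not depend on how libraries are scaled. The FPKM ratio of Sqstm1 to Keap1 was 10.8, 10.3, 10.1 and 10.6 in KO libraries 1 to 4, against 7.15, 8.87, 8.49 and 8.30 in WT libraries 1 to 4. That of Sqstm1 to Nfe2l1 was 1.50, 1.48, 1.55 and 1.36 in KO libraries, against 1.09, 1.06, 0.992 and 1.06 in WT libraries. Both ratios were higher in every KO library than in any WT library. The same held for the ratios to Nfe2l2, at 4.25 to 5.44 in KO and 2.73 to 3.89 in WT libraries, and to Cul3, at 5.48 to 6.41 in KO and 4.19 to 5.13 in WT libraries. The genotypes overlapped in the ratios to Bach1 (17.7 to 25.5 in KO, 10.8 to 21.8 in WT) and to Mafg (7.07 to 9.01 in KO, 5.07 to 7.39 in WT). Among the other members, the ratio of Nfe2l2 to Keap1 was 1.94 to 2.48 in KO and 2.14 to 2.64 in WT libraries, and that of Nfe2l2 to Bach1 was 3.79 to 5.16 in KO and 3.96 to 6.26 in WT libraries. The ratios were chosen with values known and carry no test.

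**Figure D4:**
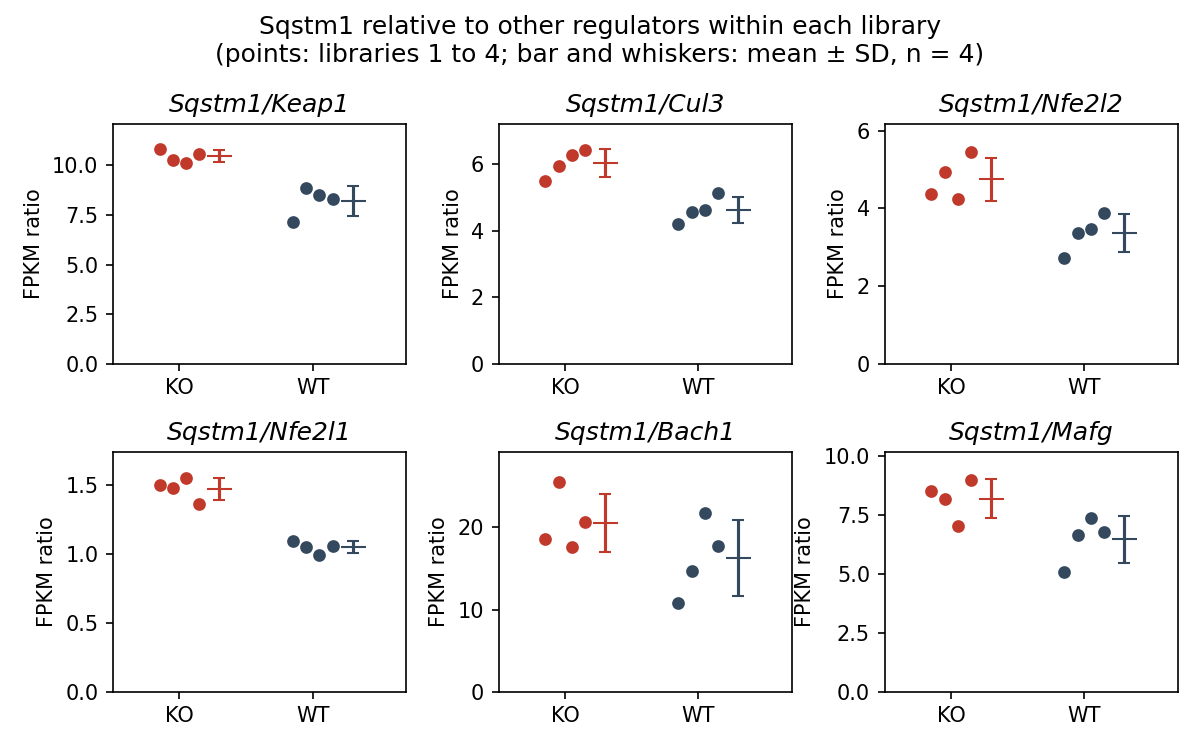
FPKM of Sqstm1 divided by that of 6 other members within each library, KO left and WT right, with mean ± SD (n = 4). KO points lie above WT points for Keap1, Cul3, Nfe2l2 and Nfe2l1 and overlap for Bach1 and Mafg.

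Genes downstream of the axis were counted to set the regulators against their targets. Of 44 NRF2 target genes 38 were tested, and 6 rose, 0 fell and 32 did not pass in edgeR (0.277% of all genes tested were called higher). Their median log2FC was 0.33 (quartiles 0.26 and 0.50), with 33 of 38 positive, against -0.01 over all genes. The list overlaps with those earlier tested on these libraries and is not independent support. Cbr3, a carbonyl reductase, had 26.2, 28.2, 23.6 and 25.2 CPM in KO libraries 1 to 4, against 9.20, 8.17, 6.07 and 10.4 CPM in WT libraries 1 to 4. The KO libraries of this gene all held more than 2 times the highest WT level. Gsta3, whose promoter match is shown with those of the regulators, had 627, 524, 347 and 517 CPM in KO libraries 1 to 4, against 133, 156, 229 and 188 CPM in WT libraries 1 to 4. The other 4 that rose were Ftl1 and Fth1, the ferritin chains that store iron (log2FC 0.92 and 0.70), Ephx1, an epoxide hydrolase (0.81), and Gsr, glutathione reductase (0.49), with edgeR adjusted p from 0.0168 to 0.0496 over the 6. Counts of Ftl1, Fth1 and Gsta3 are uncertain, since each has near-identical paralogs or pseudogenes that could share reads. With KO libraries 1 to 4 left out in turn, edgeR called 6, 0, 3 and 2 NRF2 targets. Over all genes these fits called 290, 0, 23 and 44. With WT libraries 1 to 4 left out in turn, edgeR called 1, 0, 3 and 1 NRF2 targets. Over all genes these fits called 7, 4, 20 and 8. Without both KO libraries 2 and 3 it called 0 NRF2 targets and 3 genes in all. DESeq2 called 15 NRF2 targets and 810 genes in all (5.48%). In edgeR with all libraries, 24 of the 38 targets tested had an unadjusted p under 0.05, as had 16.2% of all genes. Of these 24, 22 were higher in KO fat. In each fit with 0 NRF2 targets called, 20 of them had an unadjusted p under 0.05, counted in either direction. So had 1573, 1887 and 1294 of all genes in these 3 fits (without KO library 2, WT library 2, and both KO libraries 2 and 3).

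The 7 listed genes repressed by BACH1, which are shared with the NRF2 list save for Slc40a1, all had positive log2FC. Their median was 0.41, against -0.01 over all genes tested, and Slc40a1 was near 0 (log2FC 0.07, edgeR adjusted p = 0.926). Ftl1 and Fth1 were the 2 called higher in edgeR, as were 0.277% of all genes tested. Proteasome subunits and their assembly factor are the known targets of NRF1. Of 33 tested, 0 passed in edgeR, 2 had an unadjusted p under 0.05 (16.2% of all genes tested) and 1 was called by DESeq2 (Psma7, adjusted p = 0.0354; 5.48% of all genes), both smaller shares than over all genes, with a median log2FC of 0.10 and 27 positive. Psma7 had 110 to 120 CPM in KO and 94.1 to 102 CPM in WT libraries (log2FC 0.20, edgeR adjusted p = 0.183), and the catalytic subunit gene Psmb5 had 24.1 to 31.2 CPM in KO and 19.4 to 23.5 CPM in WT libraries (log2FC 0.33, edgeR adjusted p = 0.195). For Psmd4, a ubiquitin receptor, the genotypes overlapped (log2FC 0.20, edgeR adjusted p = 0.324).

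Of 46 other regulators of KEAP1, NRF2, NRF1, BACH1 and p62, 45 were tested, 0 rose and 1 fell in edgeR (0.128% of all genes tested were called lower), with a median log2FC of -0.03. An unadjusted p under 0.05 was reached by 7, a share near the 16.2% of all genes, and DESeq2 called 1, a smaller share than the 5.48% of all genes. The gene that fell was Fam123b (Amer1), an X-linked gene whose protein WTX binds KEAP1 in human cells and also acts in WNT signalling. It had 18.2, 14.7, 14.4 and 15.7 CPM in KO libraries 1 to 4, against 26.4, 24.9, 25.3 and 22.3 CPM in WT libraries 1 to 4. The genotypes did not overlap, but the share of all genes that lay apart in this direction is not given here. The level was 1.57-fold lower in KO fat (log2FC -0.65, SE 0.11, 95% interval -0.89 to -0.41, edgeR adjusted p = 0.0486). The fall held its direction in all 16 alternatives run and its call in 3, with adjusted p from 4.13e-05 to 0.259 (DESeq2 and edgeR). KO library 1 was the only library without which the call stayed; without both KO libraries 2 and 3 the log2FC was -0.54 (edgeR adjusted p = 0.259).

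**Figure D5:**
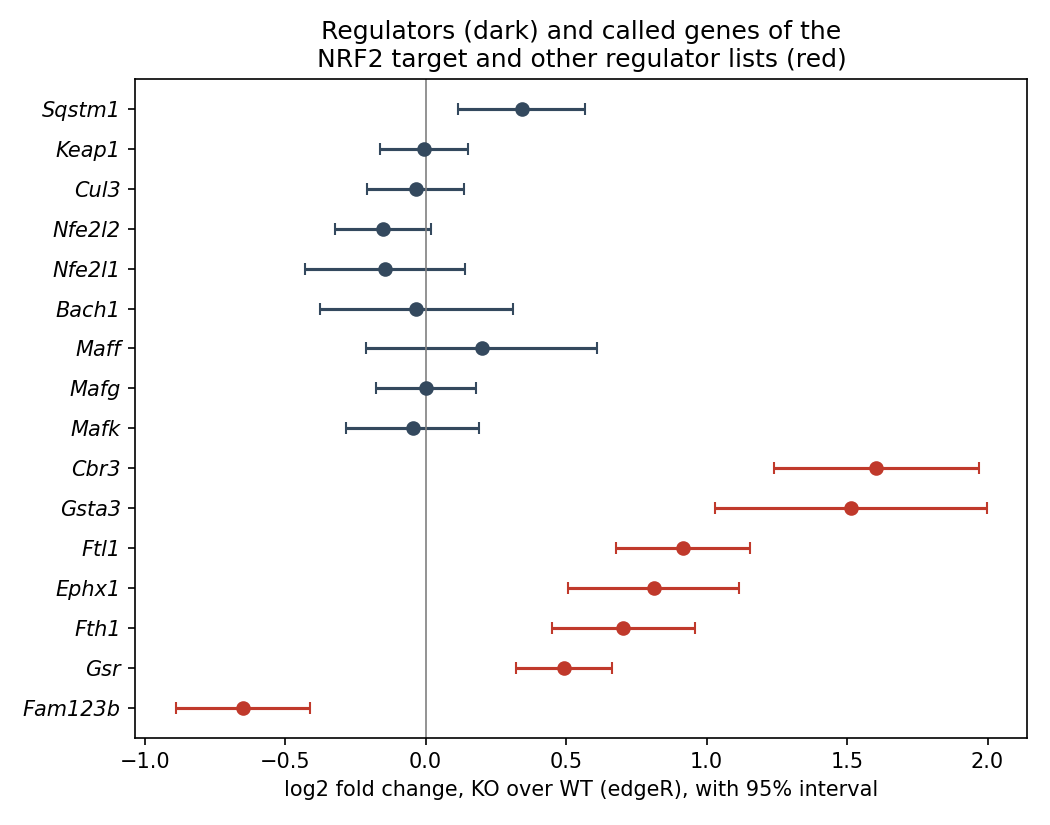
Log2 fold change, KO over WT, with 95% intervals computed from the edgeR fit, for the 9 regulators (dark) and for the called genes of the NRF2 target and other regulator lists (red). The intervals are not adjusted for the number of genes tested. Those of 8 regulators cross 0 and that of Sqstm1 runs from 0.12 to 0.57, with an edgeR adjusted p of 0.159. The called targets run from 0.49 (Gsr) to 1.60 (Cbr3) and Fam123b stands at -0.65.

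Total counts ran from 12952190 to 21688464 in KO and from 10986375 to 17128811 in WT libraries. Atg3, the deleted gene, had 27.8 to 32.2 CPM in KO and 44.5 to 53.6 CPM in WT libraries (log2FC -0.73, edgeR adjusted p = 0.0168), so every library lay on the side its label gives. The number of genes called in edgeR was 60 with all libraries, and without single libraries it ran from 0 (KO library 2, with 1573 genes at an unadjusted p under 0.05) to 290 (KO library 1). Among the fits that left out libraries, the call of Atg3 was lost without KO library 2 (edgeR adjusted p = 0.0745), WT library 1 (0.0543), WT library 4 (0.0705) or both KO libraries 2 and 3 (0.0989). The 7 prostate and seminal vesicle genes summed to 67.9 CPM in KO library 1 and to at most 4.76 CPM elsewhere. The 6 liver genes summed to 49.4 CPM in KO library 1 and 81.5 CPM in KO library 4, with a highest level of 25.8 CPM elsewhere.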

How the data were processed

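The deposited table gives, per the file headers, a raw read count and an FPKM value for each gene and library, with exonic length and mm10 coordinates. Per the submitters' processing notes Novoalign 2.8.1, Picard and mm10 were used, with no role or order; the sources used here name neither the counting program nor whether strand was used. Of 158499 FPKM values above 0, 158499 equal the deposited count over length and total within 0.1%. Groups and replicate numbers come from sample titles. No library pair of the same genotype agreed within sampling noise (lowest chi-square per gene 19.5), and pairs across genotypes were not compared. R 4.3.3 and edgeR 4.0.16 were used, with filterByExpr (minimum count 10, leaving 14800 genes), TMM and the quasi-likelihood test with no covariate. Benjamini-Hochberg adjustment ran over all genes, which were called at an adjusted p of 0.05. The SE is the absolute log2FC over the square root of the F statistic. The 95% intervals are the log2FC plus or minus a t quantile times this SE, with no adjustment for the number of genes tested. Alternatives used DESeq2 1.42.0, limma 3.58.1 (voom), other scalings, no filter, a replicate block and each library left out. P-values set the difference between genotypes against the spread among mice within each genotype, over these 8 mice. The named genes were the members, Atg3, up to 8 called genes of each of 4 pathway lists (otherwise the 3 lowest p) and the 3 genes most like Sqstm1. Members and lists were chosen with earlier results of these data known. Promoters are from RefSeq (GRCm38.p6), matched by symbol for 9 of 9 genes.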

Additional observations from a re-analysis of the deposited data

How the results depend on the processing

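The 10 rows had 0 calls in edgeR's test and in 15 of 16 alternatives, with 1 or 2 at an unadjusted p under 0.05; DESeq2 called 1, Sqstm1. Sqstm1, Nfe2l2, Nfe2l1, Maff and the Mafg pseudogene kept their direction in all 16. Signs turned where log2FC was near 0. Keap1 moved to 0.0020 (RLE), 0.012 (total count), 0.0087 (upper quartile) and 0.0032 (DESeq2), and lay from -0.0388 to 0.0252 without single libraries. Mafg moved to -0.0036 with no filter and -0.0044 with the replicate block, and lay from -0.0418 to 0.0374 without single libraries. Without single libraries Bach1 lay from -0.138 to 0.0752, Cul3 from -0.0703 to 0.0116 and Mafk from -0.105 to 0.0202. Without both KO libraries 2 and 3, an alternative chosen after seeing the data, Bach1 moved to 0.0527, Cul3 to 0.023, Mafg to -0.0652 and Mafk to 0.0047; that fit called 3 genes and 0 NRF2 targets. DESeq2 called 810 genes and 15 NRF2 targets. Without single libraries genes called ran from 0 to 290 and NRF2 targets from 0 to 6. With the replicate block 69 genes and 2 NRF2 targets were called and Atg3 was not (log2FC -0.73, edgeR adjusted p = 0.0570). As deviations from the mean of their genotype, same-numbered libraries correlated at 0.18, -0.11, -0.25 and 0.058. KO library 1 and WT library 1 correlated best with each other, and libraries 2 to 4 did not correlate best with their own number. With 4 libraries per genotype this cannot show whether the samples were paired, and the labels give only the number. The cause of the changes between alternatives was not tested. Scaling moved the median of all genes by under 0.1 (log2).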
